A study of Mus musculus with 37 samples.

Results

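A group of 9 genes of red blood cells was described across mouse lymph nodes and spleen: the alpha globin genes Hba-a1 and Hba-a2, the beta globin genes Hbb-bs and Hbb-bt, Alas2, Tspo2, Dmtn, Add2 and Epb42. All 9 of the listed gene names were found among the 56351 genes of the deposited table. The genes were chosen by name from earlier results of these data, in which the group was selected on its higher level in spleen than in nodes. Spleen against nodes is therefore a description here, and tests were made only among the nodes, which that choice did not compare.

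The study measured RNA that was pulled down with tagged ribosomes, from mice in which Cre expressed under CD169, a macrophage surface lectin also called Siglec1, switches on an HA-tagged form of the ribosomal protein Rpl22 (RiboTag). All mice carried the genotype CD169 Cre KI/KI and were homozygous for Rpl22HA, no treatment is given, and ages and sexes are not stated in the labels. The 37 libraries of polyA RNA comprise 3 from each of 11 node sites (mediastinal, super cervical, deep cervical, inguinal and iliac, and, in the abdomen, celiac, liver, duodenal, jejunal, ileal and ceco-colonic), 3 from spleen and 1 isotype control pull-down from jejunal node. The labels call the cell type CD169 macrophages and the tissue lymph node for every sample, the spleen included, and only the title gives the spleen. They do not say whether replicates came from separate animals or from pools, so p-values measure the spread between these libraries. No input RNA or Cre-negative pull-down was analysed here, and a single isotype control is the only measure of RNA carried through the pull-down without the tag.

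The erythroid lineage makes haemoglobin, a tetramer of alpha and beta globin chains that each hold a haem group. ALAS2 is the erythroid enzyme that starts haem synthesis in mitochondria, and TSPO2 is an erythroid relative of the mitochondrial translocator protein. Dematin (Dmtn), beta-adducin (Add2) and protein 4.2 (Epb42) tie the spectrin-actin skeleton to the red cell membrane. The mouse spleen holds much blood in its red pulp, where macrophages clear old red cells, and it also supports erythropoiesis, whereas a healthy lymph node is not known as a site of red cell production.

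Library totals ran from 221911 to 69139450 counts. Counts below are the deposited estimates, and levels are counts scaled to library size (CPM) after TMM normalization over the 22 libraries of at least 1000000 counts: 3 each of ileal, ceco-colonic, inguinal, super cervical, deep cervical and mediastinal node, 1 of jejunal node and 3 of spleen. The remaining 14 node libraries were shallower and are given as counts. The spleen libraries stood apart from each other. Spleen replicate 2 was the highest of the 3 for every member, and ribosomal features took 5.55% to 42.7% of a spleen library. The 6 sinus macrophage markers checked (Siglec1, Marco, Cd68, Csf1r, Adgre1 and C1qa) each had counts in at least 1 library of spleen and of each node site with 3 of these libraries. Their summed levels were 192 to 3686 CPM in spleen and 905 to 8458 CPM in those nodes. Marco alone stood at 151 to 3340 CPM in spleen and 488 to 6981 CPM in those nodes. Siglec1 was at 0, 0.481 and 0 CPM in spleen and 0 to 3.12 CPM in those nodes. Cd68 was at 0, 0.641 and 2.20 CPM in spleen. The jejunal library held no count of Cd68 or Siglec1.

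Promoters of Hba-a1, Hbb-bs, Hbb-bt and Alas2 are shown because these genes rose together in the deep cervical and mediastinal nodes; Hba-a2 rose too, and its window is nearly that of Hba-a1. The sequences are the 250 bases before the transcription start in RefSeq, build GRCm38.p6, and a window was found for 8 of the 9 members. They lie at chr11:32283422-32283671, plus strand, for Hba-a1; at chr7:103827929-103828178, minus strand, for Hbb-bs; at chr7:103813924-103814173, minus strand, for Hbb-bt; and at chrX:150547167-150547416, plus strand, for Alas2. Capitals mark GATAA, the core letters read by GATA factors such as the erythroid GATA1, and CCNCNCCC, a CACCC-type pattern of the kind read by Krüppel-like factors such as KLF1, each searched on both strands, where N is any base. Matches on the minus strand appear as the reverse complement.
Hba-a1: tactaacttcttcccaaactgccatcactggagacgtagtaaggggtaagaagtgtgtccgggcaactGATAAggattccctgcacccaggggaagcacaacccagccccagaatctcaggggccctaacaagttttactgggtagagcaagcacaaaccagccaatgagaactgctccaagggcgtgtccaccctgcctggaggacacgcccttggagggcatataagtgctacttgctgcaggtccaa
Hbb-bs: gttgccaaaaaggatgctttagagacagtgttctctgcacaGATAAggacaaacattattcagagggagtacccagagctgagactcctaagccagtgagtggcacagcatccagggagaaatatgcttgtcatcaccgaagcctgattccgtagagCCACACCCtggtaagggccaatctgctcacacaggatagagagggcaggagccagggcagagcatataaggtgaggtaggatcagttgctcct
Hbb-bt: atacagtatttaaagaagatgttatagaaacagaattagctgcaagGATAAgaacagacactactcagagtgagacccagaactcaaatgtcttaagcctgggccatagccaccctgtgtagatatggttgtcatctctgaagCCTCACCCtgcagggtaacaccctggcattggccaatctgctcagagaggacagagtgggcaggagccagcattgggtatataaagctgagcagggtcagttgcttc
Alas2: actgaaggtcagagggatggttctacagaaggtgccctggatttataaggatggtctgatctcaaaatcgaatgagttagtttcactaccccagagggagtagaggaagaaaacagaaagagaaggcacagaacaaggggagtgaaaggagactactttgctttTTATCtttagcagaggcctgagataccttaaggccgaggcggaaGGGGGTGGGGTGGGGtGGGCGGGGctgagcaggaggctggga

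GATAA occurred in 6 of the 8 members' windows of 300 bases (250 before to 50 after the start) and in 25.4% of 32851 such windows in the table. CCNCNCCC occurred in 5 of the 8 and in 49.5% of all windows, and the patterns do not overlap each other in the sequences shown except for neighbouring CCNCNCCC matches in Alas2. A match describes the letters and is not a site. The windows of Hba-a1 and Hba-a2 share an unbroken run of 297 bases, whereas the longest run shared by Hbb-bs and Hbb-bt is 14 bases. The transcripts are alike too. Of all 31-base words in the annotated transcripts, 75.4% of those of Hba-a1 occur in Hba-a2 and 54.4% of those of Hbb-bs occur in Hbb-bt, so the split of counts within each pair is uncertain. No such word was shared between alpha and beta globin.

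Hba-a1, an adult alpha globin gene, was low in most nodes, higher in mediastinal node, higher again in deep cervical node, and highest in spleen. Its CPM was 34.8, 50.8 and 68.3 in the ileal libraries, 56.8, 34.5 and 45.7 in the ceco-colonic, 44.9, 38.0 and 38.0 in the inguinal, and 28.1, 33.04 and 18.1 in the super cervical. It was 183, 171 and 182 CPM in the mediastinal libraries, 1115, 1089.65 and 708 CPM in the deep cervical, and 124 CPM in the single jejunal library. In spleen it was 1749, 15112 and 2272 CPM. The deep cervical, mediastinal and spleen libraries did not overlap each other or the remaining sites, while the ileal, ceco-colonic and inguinal libraries overlapped.

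Hba-a2, the neighbouring alpha globin gene, kept the same order. It was 123, 167 and 240.5 CPM in ileal node, 199, 134 and 175 CPM in ceco-colonic, 137, 105 and 126 CPM in inguinal, and 142, 134 and 77.7 CPM in super cervical. It was 576, 549 and 540.1 CPM in mediastinal node, 4331, 3192 and 2046 CPM in deep cervical, 531 CPM in the jejunal library, and 8608, 52082 and 10265 CPM in spleen. The lowest spleen library lay above the highest deep cervical library, and the jejunal library lay just under the mediastinal ones.

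Of the beta globin genes, Hbb-bs did not follow that order at the top, while the site means of Hbb-bt did. Hbb-bs, an adult beta globin gene, was 35.8, 59.1 and 45.2 CPM in ileal node, 32.8, 20.8 and 18.1 CPM in ceco-colonic, 23.8, 27.9 and 36.3 CPM in inguinal, 15.6, 21.5 and 33.8 CPM in super cervical, and 26.9 CPM in the jejunal library. It was 471, 462 and 476 CPM in mediastinal node and 785, 1168 and 1740 CPM in deep cervical. In spleen it was 117, 2744.5 and 398 CPM. Spleen replicates 1 and 3 thus lay below all 6 deep cervical and mediastinal libraries, and the mean of the deep cervical node, 1231 CPM, was above that of spleen, 1086 CPM, with overlapping ranges.

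Hbb-bt, the second adult beta globin gene, was 4.42 to 17.8 CPM in the ileal, ceco-colonic, inguinal, super cervical and jejunal libraries. It was 113, 91.4 and 103 CPM in mediastinal node, 213, 275 and 398 CPM in deep cervical, and 183, 2298 and 317 CPM in spleen. Spleen and deep cervical libraries overlapped, and both lay above the mediastinal ones.

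**Figure D1:**
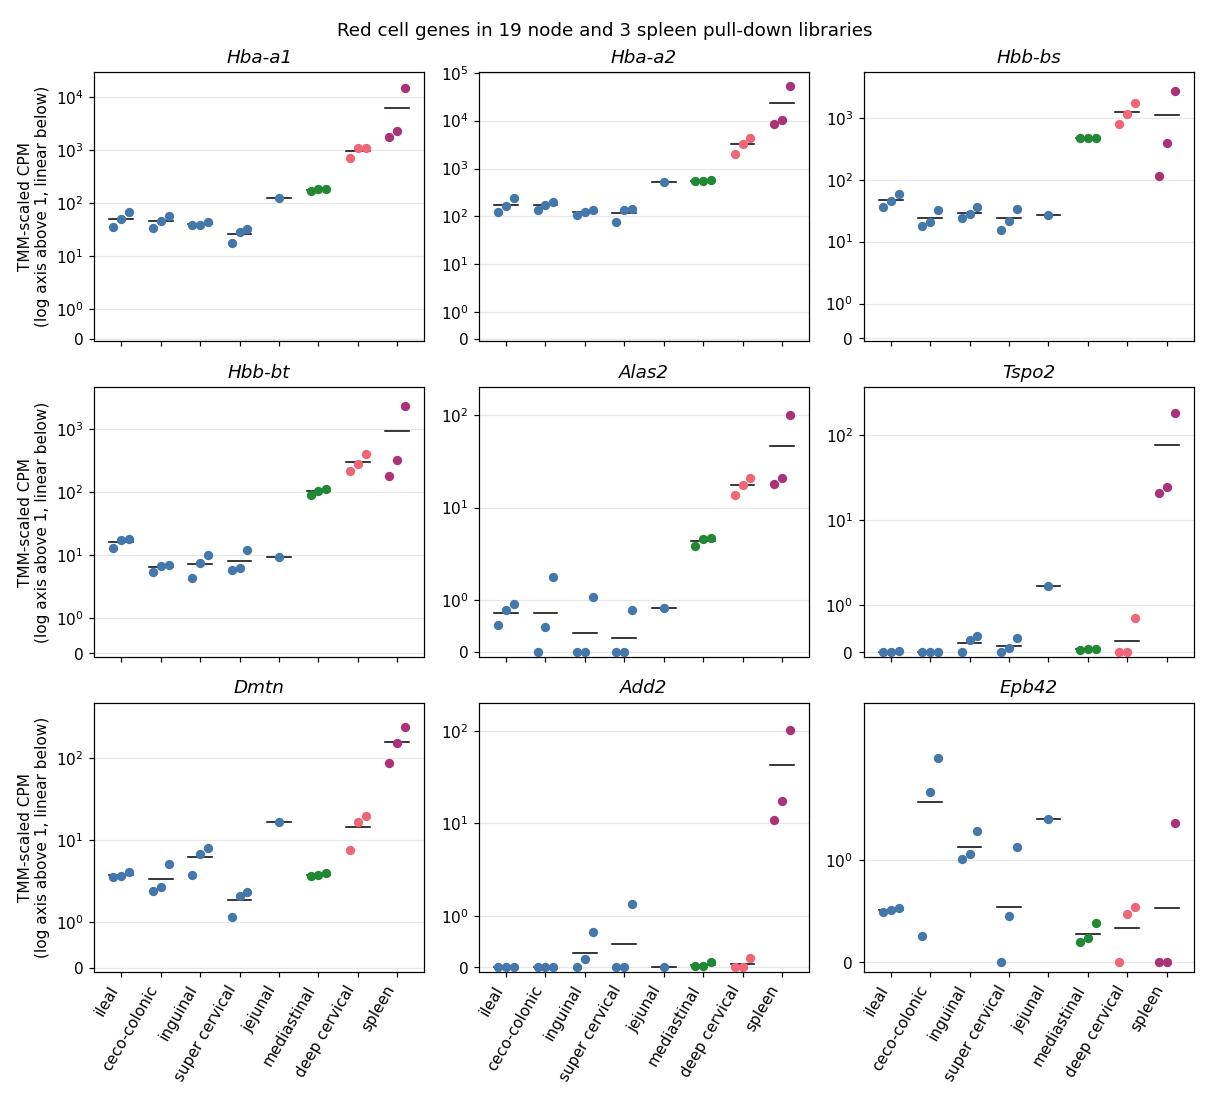
Each panel plots 1 gene; points are libraries of at least 1000000 counts, black lines are site means, and the y axis is TMM-scaled CPM, logarithmic above 1 and linear below. Deep cervical and mediastinal points stand above the other nodes for the 4 globin genes and Alas2, whereas Tspo2 and Add2 are near 0 in every node and Epb42 is low everywhere.

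Alas2 was at 0 to 1.77 CPM in the ileal, ceco-colonic, inguinal, super cervical and jejunal libraries. It reached 4.61, 4.68 and 3.86 CPM in mediastinal node, 13.7, 20.9 and 17.5 CPM in deep cervical, and 17.98, 99.5 and 20.9 CPM in spleen. The order of sites matched that of alpha globin at the top, with deep cervical and spleen overlapping. No Alas2 count was found in any of the 14 shallower node libraries.

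Nearly all counts of Tspo2 and Add2 lay in the spleen libraries. Tspo2 was 20.9, 181 and 24.2 CPM in spleen, against 0 to 1.68 CPM in the 19 node libraries, which together held 41 counts. Add2 was 10.8, 102 and 17.6 CPM in spleen, against 0 to 1.34 CPM in the node libraries, which held 33 counts. In both, every spleen library lay above every node library. Neither gene passed the filter on low counts when the 18 libraries of the 6 tested nodes were taken alone, so in the fit with spleen they passed only through it. Their node calls are left out of the counts of members below, except in the last section, on how the results depend on the processing.

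Dmtn was detected in every node library of this depth and was high in spleen, at 86.3, 238 and 154 CPM. It was 3.61, 3.50 and 4.13 CPM in ileal node, 5.05, 2.37 and 2.72 CPM in ceco-colonic, 6.80, 7.96 and 3.79 CPM in inguinal, and 2.08, 2.36 and 1.17 CPM in super cervical. It was 3.73, 3.64 and 3.997 CPM in mediastinal node, 7.49, 19.9 and 16.6 CPM in deep cervical, and 16.8 CPM in the jejunal library. Among the sites with replicate libraries of this depth, the mean of Dmtn thus set apart the deep cervical node but not the mediastinal node. Even so, deep cervical replicate 1 lay within the inguinal range. The single jejunal library, at 16.8 CPM, lay above the deep cervical libraries at 7.49 and 16.6 CPM and below the one at 19.9 CPM.

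Epb42 was not a spleen gene in these libraries. It was 0, 1.60 and 0 CPM in spleen, from 10.5 counts in replicate 2 alone, and 0 to 3.62 CPM in the 19 node libraries, which held 177 counts. The highest site mean was that of ceco-colonic node, 2.08 ± 1.70 CPM (SD, n = 3).

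As a description of the contrast that chose the genes, the fitted log2 fold change of spleen over the mean of the 6 nodes with 3 deep libraries was 6.20 ± 0.32 (SE) for Hba-a1, 6.29 ± 0.31 for Hba-a2, 3.63 ± 0.38 for Hbb-bs, 5.27 ± 0.34 for Hbb-bt, 4.89 ± 0.40 for Alas2 and 5.18 ± 0.26 for Dmtn. Without spleen replicate 2 the same values were 4.56, 4.99, 1.57, 3.38, 3.61 and 4.79. The threshold used throughout, an adjusted p of 0.05, was passed upward by 8 of the 9 members and by 25.7% of the 19702 genes tested, and nothing is read from that count. The median log2 fold change was 5.27 over the 9 members and -0.27 over all genes. The ranges of spleen and of the 19 node libraries did not overlap for Hba-a1, Hba-a2, Tspo2, Dmtn and Add2. They overlapped for Hbb-bs, Hbb-bt, Alas2 and Epb42. The share of all genes without such overlap was not taken, so nothing is read from these ranges. In bulk libraries such as these, fewer cells of a type and less RNA per cell cannot be told apart.

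The nodes were then compared with each other by edgeR's quasi-likelihood test, with Benjamini-Hochberg adjustment over all genes tested. Hba-a1, Hba-a2, Hbb-bs, Hbb-bt, Alas2 and Dmtn, the 6 members that pass the filter in the node libraries alone, each differed between some of the 6 sites with 3 deep libraries. The background of this test was high, since 56.8% of all genes passed it, or 69.9% with the 18 node libraries fitted alone. With all 11 node sites, in a fit that holds spleen, Tspo2 and Add2 passed too but are not counted. The same 6 members passed there, as did 84.9% of 16294 genes. These shares leave the members' count little to tell by itself, and the size and place of the differences follow. Epb42 did not pass (adjusted p = 0.0806). Of the node counts of Add2, 15 lay in super cervical replicate 3, and in deep cervical node Tspo2 had counts in replicate 3 alone.

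Deep cervical node was the site with the highest levels of the globins and Alas2 among nodes. Against the mean of the other 5 sites, the log2 fold change was 4.18 ± 0.34 (SE) for Hba-a1 (adjusted p = 7.07e-11), 4.08 ± 0.33 for Hba-a2 (adjusted p = 4.97e-11), 4.57 ± 0.40 for Hbb-bs (adjusted p = 6.34e-10) and 4.33 ± 0.37 for Hbb-bt (adjusted p = 1.51e-10). Alas2 rose by 4.12 ± 0.44 (adjusted p = 1.69e-08) and Dmtn by 2.10 ± 0.30 (adjusted p = 2.45e-06). In all, the 6 members counted rose, where 20.7% of all genes did, and with the 18 node libraries fitted alone, a setting added after seeing the data, the same 6 rose, against 24.2%. Alas2 was at 0 to 1.77 CPM in the node libraries outside deep cervical and mediastinal node. These 6 genes passed under each alternative fit tried.

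Mediastinal node was second. Against the mean of the other 5 sites, deep cervical among them, Hbb-bs rose by 2.90 ± 0.41 on the log2 scale (adjusted p = 1.56e-05), Hbb-bt by 2.50 ± 0.38 (adjusted p = 3.21e-05), Alas2 by 1.73 ± 0.46 (adjusted p = 0.00386), Hba-a1 by 1.25 ± 0.38 (adjusted p = 0.01) and Hba-a2 by 1.05 ± 0.37 (adjusted p = 0.0237). These 5 stand beside 24.3% of all genes, and beside 28.4% with the 18 node libraries fitted alone. The Hba-a2 call was lost without any 1 of the mediastinal libraries, at adjusted p of 0.0781, 0.0789 and 0.08. With deep cervical left out of the reference, a setting added after seeing the data, the same 5 genes rose, against 28.4% of all genes, and Hbb-bs reached 3.97 ± 0.43. In that setting Epb42, which fails the filter in nodes alone, was lower (-1.74 ± 0.72, adjusted p = 0.0455). Dmtn did not pass in mediastinal node (log2 fold change -0.26 ± 0.33, adjusted p = 0.543).

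Deep cervical was compared with mediastinal node directly, also added after seeing the data. Hba-a1 was higher in deep cervical by 2.44 ± 0.56 on the log2 scale (adjusted p = 0.00325), Hba-a2 by 2.52 ± 0.55 (adjusted p = 0.00173), Alas2 by 1.99 ± 0.61 (adjusted p = 0.027) and Dmtn by 1.97 ± 0.42 (adjusted p = 0.00163), which makes 4 of the 6 members counted, beside 8.52% of all genes. The beta globin differences did not pass, at 1.39 ± 0.63 for Hbb-bs (adjusted p = 0.148) and 1.53 ± 0.58 for Hbb-bt (adjusted p = 0.0735).

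**Figure D2:**
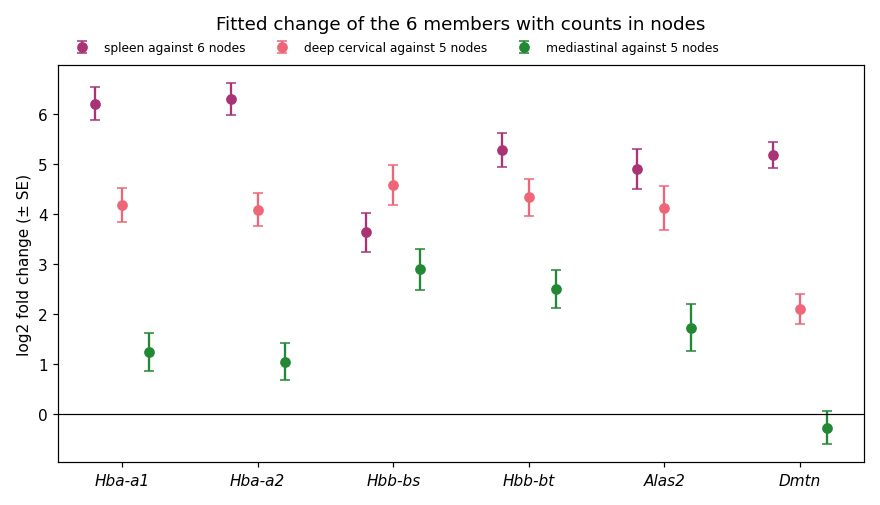
Points are fitted log2 fold changes and bars are their SE for the 6 members with enough counts in nodes. Spleen against 6 nodes is the contrast that chose the genes; deep cervical and mediastinal are each set against the other 5 nodes, a different reference, so heights are not compared between colours. Deep cervical values run from 2.10 for Dmtn to 4.57 for Hbb-bs, and mediastinal values from -0.26 for Dmtn to 2.90 for Hbb-bs.

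Super cervical, inguinal, ceco-colonic and ileal node were each set against the mean of the other 5 sites, a reference that includes deep cervical node. In super cervical node Hba-a1, Hba-a2, Hbb-bs, Hbb-bt and Dmtn fell, 5 of the 6 members counted beside 1.15% of all genes, with Hba-a1 at -2.08 ± 0.50 (adjusted p = 0.0106). In inguinal node the 4 globin genes fell, against 5.07% of all genes, and in ceco-colonic node Hbb-bs and Hbb-bt fell, against 0.843%. In ileal node no member passed in edgeR, limma voom or DESeq2, 3 had an unadjusted edgeR p under the threshold, and 0.629% of all genes fell. With deep cervical left out of the reference no member fell in super cervical (0.452% of all genes fell), inguinal (1.17%) or ceco-colonic node (0.0457%), so these calls depend on that site being in the reference. The fitted values of the genes called stayed negative in that setting, at -1.29 ± 0.48 for Hba-a1 in super cervical node (adjusted p = 0.146), -1.20 ± 0.51 for Hbb-bt in inguinal node (adjusted p = 0.137) and -1.48 ± 0.54 for Hbb-bt in ceco-colonic node (adjusted p = 0.18). Others were smaller, at -0.85 ± 0.44 for Hba-a2 in super cervical node and -0.52 ± 0.45 for Hba-a1 in inguinal node. That reference still holds mediastinal node, where the globins were higher, and its part in these values was not tested. Among the 6 sites, super cervical and deep cervical node gave the lowest and the highest Hba-a1 means, 26.4 ± 7.60 and 971 ± 228 CPM (SD, n = 3 each).

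The make-up of the globin counts differed between libraries. It was taken in the 25 libraries with at least 100 alpha globin counts, as counts that are not scaled by gene length, so that a ratio is read only against the same ratio elsewhere. Spleen held 2.89, 7.50 and 5.70 beta globin counts per 100 alpha globin counts. Mediastinal node held 76.9, 76.8 and 80.2, and deep cervical node held 18.3, 33.7 and 77.7. The mediastinal libraries were alike, whereas the deep cervical libraries spread over most of the range of the nodes, 1.77 to 80.2.

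Depth moved with this ratio. In 7 of the 8 sites with 3 such libraries, the deepest library of the site had the highest beta ratio, as in super cervical node, where replicates 1 and 2 held 13.1 and 16.5 and the deeper replicate 3 held 48.0. The part of depth in the ratio was not tested. The share of Hbb-bt in beta globin was 61.1%, 45.6% and 44.4% in spleen and 11.4% to 32.7% in the node libraries, with no overlap, within the limit that the counting could split the pair unevenly. Hba-a1 made up 16.9% to 22.5% of alpha globin in spleen and 10.6% to 26.6% in nodes, which overlapped. Alas2 stood at 1.48 to 1.76 counts per 1000 alpha globin counts in spleen, 5.34 to 6.51 in mediastinal node and 2.50 to 6.35 in deep cervical node.

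**Figure D3:**
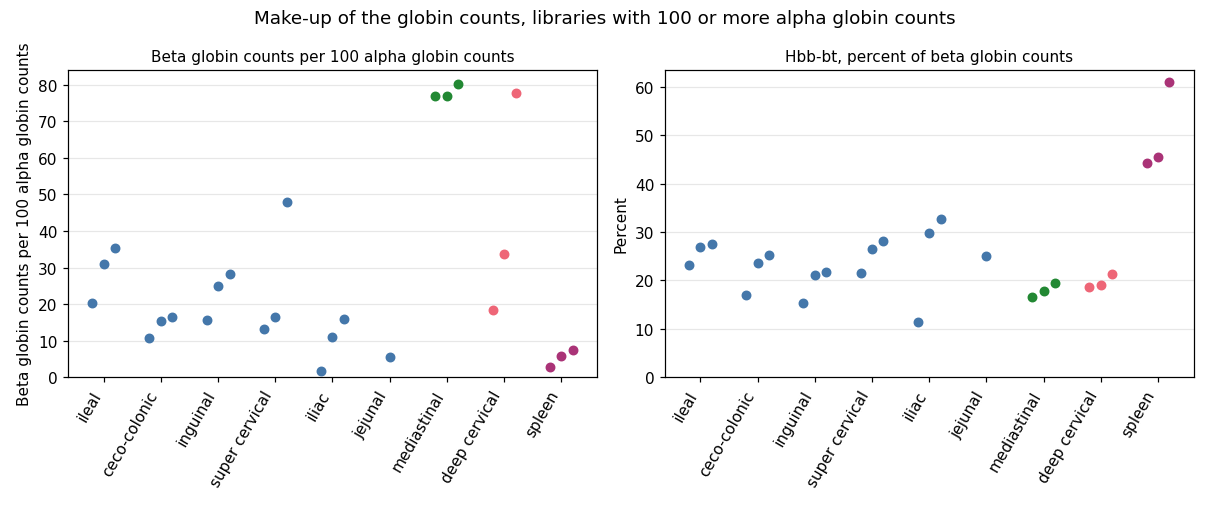
Points are the 25 libraries with at least 100 alpha globin counts, by site; the left axis gives beta globin counts per 100 alpha globin counts and the right axis the percent of beta globin counts assigned to Hbb-bt. Spleen is low on the left (2.89 to 7.50) and high on the right (44.4% to 61.1%), and the deep cervical libraries spread on the left from 18.3 to 77.7.

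Together the 4 globin genes took 0.609%, 4.69% and 1.03% of the counts of the spleen libraries. They took 0.692% to 0.758% in deep cervical node, 0.172% to 0.194% in mediastinal node and 0.0144% to 0.0187% in super cervical node. In these unscaled counts, all 3 deep cervical libraries thus held a globin share at least as large as that of the lowest spleen library, replicate 1. Ribosomal features took 25.3% of that spleen library and 3.37% to 10.5% of the deep cervical ones. On the TMM scale its Hba-a1 and Hba-a2, at 1749 and 8608 CPM, lay above every deep cervical library. Its Hbb-bs and Hbb-bt, at 117 and 183 CPM, lay below every deep cervical library.

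The isotype control, a mock pull-down from jejunal node, held few of these transcripts. Of its 5002926 counts, 7.26 were Hba-a1, 17.5 Hba-a2, 18.6 Hbb-bs, 1.61 Hbb-bt, 23.0 Dmtn and 1.29 Epb42, and none were Alas2, Tspo2 or Add2. In CPM without TMM scaling, each of the 33 node libraries lay above the isotype control for Hba-a1, Hba-a2 and Hbb-bs, and 13 of 33 did so for Dmtn. Some of these values rest on very few counts. Celiac replicate 1 held 1.27 counts of Hbb-bs (4.29 CPM against 3.72 in the isotype control) and duodenal replicate 1 held 1.72 of Hba-a1 (4.46 against 1.45). The share of all genes above the isotype control in every node library was not taken. The matched jejunal pull-downs held 37.0, 631 and 8.08 counts of Hba-a2. Their mean CPM exceeded the isotype value by 5.35 on the log2 scale for Hba-a2, 4.40 for Hba-a1 and 3.22 for Hbb-bs, and was -0.02 for Dmtn. These values turned on single libraries. Without jejunal replicate 2 they were 3.92 for Hba-a2, 2.47 for Hba-a1, 3.56 for Hbb-bs and -1.51 for Dmtn, and without replicate 3 they were 2.21 for Hbb-bs and 0.56 for Dmtn. With TMM-adjusted totals and all jejunal libraries each was lower, at 4.63 for Hba-a2, 3.66 for Hba-a1, 2.47 for Hbb-bs and -0.73 for Dmtn. With 1 isotype library the difference has no replicate check, and no test was made.

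Each of the 14 shallower node libraries held counts of Hba-a1, Hba-a2 and Hbb-bs. Hba-a2 had 1263 counts in total, of which 771 were in iliac replicate 2, and Hba-a1 had 226. The iliac libraries held 125, 771 and 200.3 counts of Hba-a2, against 4 to 37 in each duodenal, celiac, liver and shallow jejunal library. By site, Hba-a2 and Hbb-bs had 45 and 27 counts in celiac node, 53 and 14 in duodenal, 24 and 22 in liver, and 45 and 27 in the shallow jejunal libraries. Hbb-bs exceeded Hba-a2 in jejunal replicate 3, with 18 counts against 8, in celiac replicate 2, with 15 against 6, and in liver replicate 1, with 9 against 4. Hbb-bs had 141 counts in the 14 libraries, Hbb-bt 38, Dmtn 10, Tspo2 3, Add2 2 and Epb42 2. Iliac node was thus the site of highest alpha globin among the shallow libraries, with no test made on counts of this size.

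Other genes of red cells were read from a list of 63, of which 62 were in the table, 52 passed the filter in the fit with spleen and 43 pass it in the node libraries alone. In deep cervical node 16 of the 43 rose and 1 fell, where 20.7% of all genes rose and 13.9% fell, and their median log2 fold change was 0.64, against -0.01 over all genes. With the 18 node libraries fitted alone, 17 rose and 3 fell, against 24.2% and 19.6% of all genes. Of 12 genes of the membrane and its skeleton 5 rose. Ank1, which encodes the ankyrin that anchors the spectrin skeleton, was at 4.98 to 6.84 CPM in deep cervical node, 0.352 to 0.503 in mediastinal node and 2.88 to 10.1 in spleen, and rose in deep cervical node by 5.73 ± 0.54 (adjusted p = 2.45e-09). Slc4a1, the band 3 anion exchanger, passes the filter only through spleen and has no node test. It was at 0, 0.156 and 1.07 CPM in deep cervical node and 0.719, 11.5 and 6.61 CPM in spleen.

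Of 6 red cell enzymes tested, 5 rose in deep cervical node: Car2, a carbonic anhydrase (2.36 ± 0.38, adjusted p = 1.46e-05), Bpgm, which makes bisphosphoglycerate (1.41 ± 0.35, adjusted p = 0.00267), Cat, Prdx2 and Blvrb, which act on peroxides and biliverdin. These enzymes are also made by other cells. Of 11 haem synthesis genes, 5 rose, among them Urod and Alad, whereas Fech, the last enzyme of the path, did not pass (0.64 ± 0.29, adjusted p = 0.0825) unless the node libraries were fitted alone (adjusted p = 0.0177). Of the 9 genes of erythroid transcription and signalling counted, none rose. Gata1, the erythroid and megakaryocytic master factor, fell by 2.12 ± 0.52 (adjusted p = 0.00216), at 0.313 to 0.977 CPM in deep cervical node against 25.2 to 39.7 CPM in spleen. Klf1, another erythroid factor, was at 0 to 0.358 CPM in deep cervical node and 0 to 13.9 CPM in spleen.

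In mediastinal node 17 of the 43 rose and 3 fell, where 24.3% and 18.1% of all genes did. With the node libraries fitted alone, 17 rose and 6 fell, where 28.4% and 25.7% of all genes did. Ank1 did not pass there (adjusted p = 0.131). In spleen 21 of the 52 were higher and 11 lower than in nodes, where 25.7% and 31.4% of all genes passed, from which nothing is read since that contrast chose the members. The embryonic and theta globin genes of the list were too low to be tested in any site. Hbb-y and Hbb-bh2 had no count in spleen, deep cervical or mediastinal node.

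**Figure D4:**
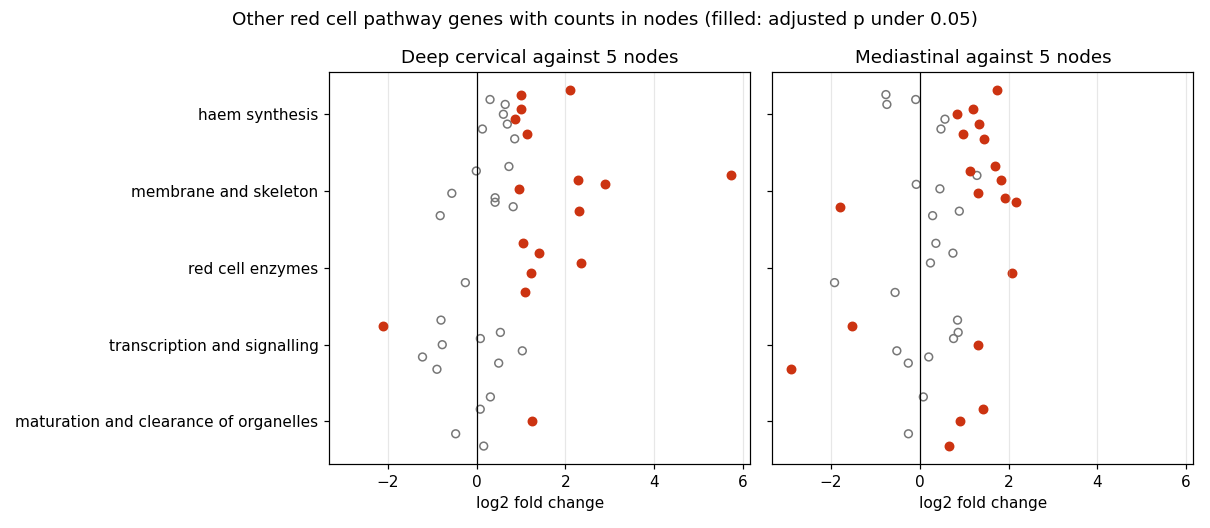
Each point is 1 of the 43 pathway genes that pass the filter in nodes alone, by list; the x axis is the log2 fold change of deep cervical (left) or mediastinal node (right) against the mean of the other 5 nodes in the fit with spleen, and filled points have an adjusted p under 0.05. In deep cervical node 5 of 12 membrane genes and 5 of 6 enzymes rose, and the 1 gene that fell, Gata1, is in the transcription list.

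Markers of other blood cells were set beside these values. The 10 neutrophil markers summed to 4.56, 294 and 6.57 CPM in the deep cervical libraries, 167, 44.6 and 229 CPM in mediastinal node, 38.1, 340.1 and 60.6 CPM in spleen and 0.453 to 28.9 CPM in the other node sites. In the nodes with high sums nearly all of it was Ltf, lactoferrin, at 0.326, 288 and 0.760 CPM in deep cervical node and 163, 41.2 and 206 CPM in mediastinal node, against 1.44, 1.76 and 8.82 CPM in spleen. Ly6g and Elane were at 0 in deep cervical node. The 10 platelet markers summed to 95.4 to 122 CPM in deep cervical node, 121 to 222 CPM in ileal node and 23.1 to 136 CPM in spleen, with Gp9 at 0 in deep cervical node. Among the 6 platelet markers tested was Pf4, platelet factor 4. It was at 41.7, 63.4 and 82.9 CPM in deep cervical node, 21.997, 28.3 and 22.9 CPM in mediastinal node, 3.03 to 23.1 CPM in the other node libraries and 0, 8.33 and 0 CPM in spleen, and rose in deep cervical node by 2.54 ± 0.37 (adjusted p = 4.19e-06), whereas in mediastinal node it passed only with deep cervical left out of the reference (adjusted p = 0.0705 with it and 0.00402 without). The 8 markers of red pulp macrophages, which take up old red cells, summed to 44.1 to 206 CPM in spleen, 563 to 909 CPM in mediastinal node and 125 to 334 CPM in deep cervical node. The 5 B cell markers summed to 263 to 326 CPM in deep cervical node and to at least 1142 CPM in every other site. The 6 T cell markers summed to 47.5 to 82.9 CPM there, against 143 CPM or more in the other node libraries. The 6 cell cycle genes summed to 522 to 2127 CPM in spleen and 78.5 to 99.96 CPM in deep cervical node, the lowest of the sites. The part of these cell types in the red cell values was not tested.

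The genes whose levels ran most like the mean of the 9 members were named by Pearson correlation of log2 CPM, as a description over libraries that share sites and depth. Over all 22 libraries these included Slc4a1 (r = 0.92), Dnajb4 (0.90), Rhd (0.89), Hemgn (0.88), Ank1 (0.86), Camp (0.85) and Treml1 (0.85). Spleen against nodes, the contrast that chose the members, enters these values, so nothing is read from the names. Slc4a1 and Rhd passed the filter only through spleen. Slc4a1, Rhd and Ank1 belong to the red cell membrane, Camp is a neutrophil granule gene and Treml1 a platelet gene. Over the 19 node libraries they were different names: Pak4 (0.95), Kng2 (0.94), Atp1b1 (0.94), S100a11 (0.93), Tspan1 (0.93), Igfbp5 (0.93), Rhbg (0.93) and Rhoc (0.93). Those values follow the deep cervical and mediastinal libraries. Tspan1, a tetraspanin, was at 19.2, 46.9 and 34.5 CPM in deep cervical node, 1.91, 0.915 and 3.23 CPM in mediastinal node and 0 to 0.896 CPM in the other node libraries, and Kng2, a kininogen gene, at 3.58, 3.27 and 10.5 CPM in deep cervical node. Among the members themselves, the correlation with the members' mean over node libraries was 0.92 to 0.94 for the globins and 0.90 for Alas2, 0.69 for Dmtn, 0.28 for Tspo2, 0.03 for Add2 and -0.26 for Epb42. That mean includes each gene itself and all the globins, so these values are in part fixed by its make-up.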

How the data were processed

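RNA pulled down with tagged ribosomes was measured in 37 libraries. The deposited table holds expected counts per gene, estimated by the authors with kallisto per the submitters' processing notes, which also name limma, edgeR and the builds GRCm39 and mm10 without roles; the build behind the table is not settled by them. Columns were matched to samples by title. The 211 rows with a gene identifier but no symbol held 0.0159% to 0.115% of counts and stayed in the fits. The 9 members and all gene lists were chosen with earlier results of these data known.

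Counts were rounded and fitted with edgeR 4.0.16 (R 4.3.3; filterByExpr with a minimum count of 10 and total of 15, TMM, robust quasi-likelihood, Benjamini-Hochberg over all genes, threshold 0.05) in the 22 libraries of at least 1000000 counts, 1 mean per site, so that all sites share 1 estimate of the spread. The 1 jejunal library formed its own group. A second fit used all 36 pull-downs, and another, added after seeing the data, the 18 node libraries of 6 sites with their own filter. The fit was tested on simulated counts. Libraries of a site differed beyond counting noise, their chi-square divided by its degrees of freedom being 10.8 to 198 over 36 pairs. Genes of like pattern were the 8 named genes of highest Pearson r with the members' mean log2 CPM (prior count 2); 1 of them is not reported here. limma 3.58.1 (voom) and DESeq2 1.42.0 were alternatives. Values after ± are SE of the fit or, where stated, SD over the libraries of a site. RefSeq promoter windows came from GRCm38.p6, and 31-base words from GENCODE transcripts.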

Additional observations from a re-analysis of the deposited data

How the results depend on the processing

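Of 1331 values of single members under an alternative, 1247 kept their side of the threshold, 66 lost the call, 16 gained it and 2 changed sign: Tspo2 in deep cervical node, at -2.84 without deep cervical replicate 3, and Add2 in super cervical node, at -2.42 without super cervical replicate 3, both fitted to a site left with no count. Leaving out each library in turn gave -2.84 to 3.51 for the former and -2.42 to 5.33 for the latter. Counts of members in this section include Tspo2, Add2 and Epb42 where they were tested, although these fail the filter in the node libraries alone. The count of members called in ceco-colonic node, 2, became 0 with deep cervical left out of the reference, 1 with limma voom, 4 with DESeq2, and 0 to 2 when leaving out each library in turn. In inguinal node the count of 4 became 0 with deep cervical left out and ranged from 0 to 4 when leaving out each library. In super cervical node the count of 6, Add2 among them, became 1 with deep cervical left out and 3 with limma voom, and ranged from 1 to 6. The counts ranged from 6 to 7 in deep cervical, 4 to 6 in mediastinal, 0 to 0 in ileal node, 7 to 9 for any difference among the 6 sites and 3 to 4 for deep cervical against mediastinal. The cause of the shifts between tools was not tested. Without jejunal replicate 2 the log2 ratio of Hba-a1 to the isotype control was 2.47, and leaving out each jejunal library gave 2.47 to 4.86. Spleen fold changes ranged from 4.56 to 6.88 for Hba-a1 and 1.57 to 4.39 for Hbb-bs. The 18 node libraries alone gave 6 members called among the 6 sites, 6 in deep cervical and 5 in mediastinal node, since Tspo2, Add2 and Epb42 failed the filter there. With a replicate block 8 members passed among 6 sites, as without it. Deviations of same-numbered libraries of different sites correlated at -0.31 to 0.43 (median 0.02, 16 of 63 pairs over 0.1). For libraries of different number the correlations were -0.44 to 0.44 (median -0.02, 19 of 126 pairs over 0.1). Whether the numbers pair the libraries cannot be told from these values. Counts limit Tspo2, Add2 and Epb42 in all nodes, Epb42 in spleen as well, and every member in the 14 shallower libraries.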
